A study of Mus musculus with 12 samples.

Results

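MOF (KAT8), an acetyltransferase that modifies histone H4 at lysine 16, was mapped by chromatin immunoprecipitation and sequencing (ChIP-seq) in visceral white adipose tissue (WAT), and its peaks are described here at 10 genes that encode adipogenic transcription factors: Cebpa, Cebpb, Cebpd, Cebpg, Ebf2, Klf4, Klf15, Zfp423, Zfp521 and Prdm16. They were taken as listed genes, not for their values, and are 10 of 21938 protein-coding genes of the GENCODE mouse M21 annotation. A peak was given to a gene when it shared at least 1 base with the gene body or with the 3 kb on either side of any annotated start site. Tissue came from C57BL/6 mice at 8 weeks of age on a standard diet, and the groups were wild-type Mof+/+ mice and mice heterozygous for Mof (Mof+/-), which carry a single functional allele throughout the body and not in fat alone. The labels list 12 libraries in 6 groups of 2, which are MOF ChIP, histone H3 ChIP and input in each genotype. The design text instead names 2 control and 3 Mof+/- animals, whereas the reporting summary gives 2 littermates of each genotype. The values used here are 2 deposited peak lists, 1 per genotype, of 19773 peaks in Mof+/+ and 731 in Mof+/- WAT. Neither list names a library, and whether replicates were pooled before peaks were called is not given in the sources used here. Signal tracks and reads were not analysed here. The lists carry no replicate spread, so differences between the genotypes are given as values with no test. WAT holds several cell types, and a gene bound in fewer cells cannot be told apart from a gene bound less in each cell.

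The C/EBP proteins are leucine-zipper factors that act in sequence during fat cell formation: C/EBPβ and C/EBPδ are induced early and in turn activate C/EBPα, which with PPARγ holds the differentiated state, whereas C/EBPγ lacks an activation domain and pairs with the others. KLF4 is an early activator of Cebpb, and KLF15 promotes later steps, including expression of the insulin-responsive glucose transporter. ZFP423 commits precursor cells to the white fat lineage, its relative ZFP521 restrains adipogenesis, and EBF2 and PRDM16 specify brown and beige fat.

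Of the 10 genes, 6 carried a Mof+/+ peak (Cebpa, Cebpb, Cebpg, Ebf2, Klf4 and Zfp521) beside 44.5% of all protein-coding genes by the same rule, and 4 did not (Cebpd, Klf15, Zfp423 and Prdm16). In the Mof+/- list, Ebf2 and Zfp521 carried a peak, which makes 2 of 10 beside 1.89% of all protein-coding genes. The 4 C/EBP genes and both KLF genes had none there. Since a long body can hold a peak more easily, the counts were also read by length. Among genes under 20 kb, 37.5% carried a Mof+/+ peak and 2.02% a Mof+/- peak, and of the 6 short factor genes (the C/EBP and KLF genes) 4 and 0 did. Among genes over 100 kb these shares were 46.4% and 1.97%, and of the 4 long factor genes (Ebf2, Zfp423, Zfp521 and Prdm16) 2 carried a peak in each list.

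**Figure D1:**
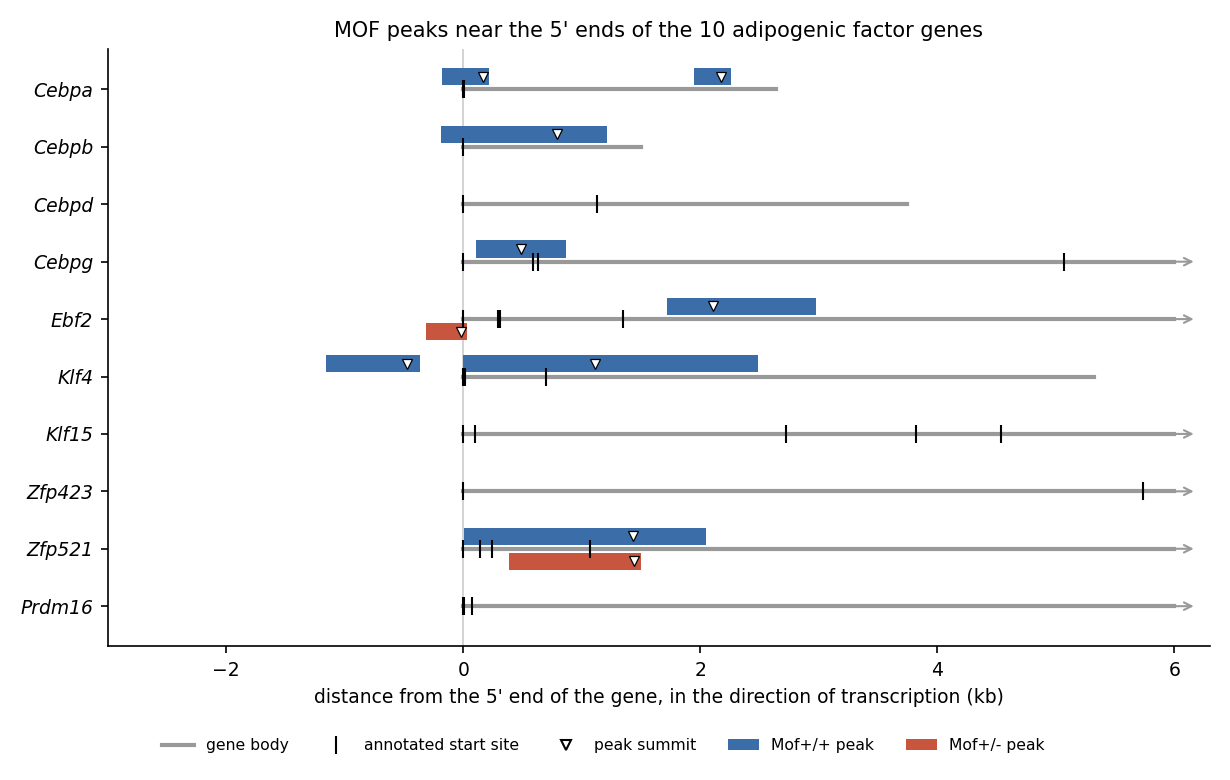
Position of the MOF peaks at the 10 genes, in kb from the 5′ end of the gene in the direction of transcription, with Mof+/+ peaks in blue above the gene line and Mof+/- peaks in red below it. White triangles mark summits and black ticks annotated start sites within the plotted range, and an arrow marks a gene body that runs on. The peaks cluster at the 5′ ends, with the second Cebpa peak at the far end of that short gene, and Cebpd, Klf15, Zfp423 and Prdm16 have none.

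The promoters of 5 of the genes are shown because they cover both outcomes, a peak and none. Those of Cebpa and Cebpb lay mostly under a Mof+/+ peak, that of Klf4 lay mostly in the gap between its 2 peaks, and those of Klf15 and Prdm16 had no peak. The windows run from 250 bases before the start site to 50 bases from it on, 5′ to 3′ on the strand of the gene, and come from a table of RefSeq promoters on GRCm38.p6, in which 7 of the 10 genes were matched. The promoters of the other 3 were not analysed here. They are Cebpa at chr7:35119043-35119342 (plus strand), Cebpb at chr2:167688665-167688964 (plus), Klf4 at chr4:55532426-55532725 (minus), Klf15 at chr6:90462326-90462625 (plus) and Prdm16 at chr4:154636824-154637123 (minus). Capitals mark matches, on either strand, to the letters CACCC bound by KLF proteins, to the GC box spelled GGGCGG, to the CCAAT box known by those letters, and to the TATA box read as TATAAA.
Cebpa: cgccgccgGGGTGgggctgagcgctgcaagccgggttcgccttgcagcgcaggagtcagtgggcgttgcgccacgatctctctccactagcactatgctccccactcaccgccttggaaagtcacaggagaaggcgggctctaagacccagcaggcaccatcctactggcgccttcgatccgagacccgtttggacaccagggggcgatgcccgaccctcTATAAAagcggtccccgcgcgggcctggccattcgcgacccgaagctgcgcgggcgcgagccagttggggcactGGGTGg
Cebpb: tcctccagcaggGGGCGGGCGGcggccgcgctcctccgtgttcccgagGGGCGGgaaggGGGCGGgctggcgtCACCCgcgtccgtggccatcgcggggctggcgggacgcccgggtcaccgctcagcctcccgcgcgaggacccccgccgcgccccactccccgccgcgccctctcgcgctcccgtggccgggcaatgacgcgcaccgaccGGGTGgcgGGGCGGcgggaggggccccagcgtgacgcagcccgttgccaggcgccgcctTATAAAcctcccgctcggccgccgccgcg
Klf4: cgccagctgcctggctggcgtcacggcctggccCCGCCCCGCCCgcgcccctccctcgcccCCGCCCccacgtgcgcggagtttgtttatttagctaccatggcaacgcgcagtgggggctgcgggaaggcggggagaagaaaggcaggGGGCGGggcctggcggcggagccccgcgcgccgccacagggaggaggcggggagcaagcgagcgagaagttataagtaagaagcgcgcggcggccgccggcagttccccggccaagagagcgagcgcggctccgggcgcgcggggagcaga
Klf15: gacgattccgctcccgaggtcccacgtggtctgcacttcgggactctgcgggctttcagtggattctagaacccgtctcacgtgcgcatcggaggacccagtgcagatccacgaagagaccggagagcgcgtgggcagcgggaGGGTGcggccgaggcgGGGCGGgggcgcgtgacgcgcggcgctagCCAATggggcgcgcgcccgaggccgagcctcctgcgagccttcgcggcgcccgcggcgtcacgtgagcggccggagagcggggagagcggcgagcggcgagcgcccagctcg
Prdm16: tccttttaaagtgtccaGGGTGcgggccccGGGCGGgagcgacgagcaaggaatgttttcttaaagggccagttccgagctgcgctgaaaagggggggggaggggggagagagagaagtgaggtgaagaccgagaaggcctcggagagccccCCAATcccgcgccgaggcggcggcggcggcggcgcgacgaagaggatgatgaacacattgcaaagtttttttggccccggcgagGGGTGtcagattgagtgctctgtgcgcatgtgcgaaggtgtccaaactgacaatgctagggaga

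Of these 300 bases, 230 lay inside a Mof+/+ peak at Cebpa, 234 at Cebpb, 40 at Klf4 and 0 at Klf15 and Prdm16. All 5 windows were rich in CpG, the dinucleotide of CpG-island promoters: they held 29, 50, 40, 47 and 24 CpG sites in the order printed, beside a median of 13 over 21262 protein-coding windows. The Cebpb window held 5 matches to the GC box, the Klf4 window 4 and those of Klf15 and Prdm16 1 each, while the Cebpa window held none. Outside the 5 printed, the Cebpg window held 1 and that of Zfp423 2. Over all protein-coding windows 46.2% held at least 1. The KLF letters were found in the windows of Cebpa (2 matches), Cebpb (2), Klf15 (1), Prdm16 (2) and Zfp423 (3), and not in those of Klf4 and Cebpg, beside 59.5% of all windows. A TATA box stood in the 2 windows with a peak over most of their length, those of Cebpa and Cebpb, beside 12.6% of all windows. CCAAT was found in those of Klf15 and Prdm16 and, outside the 5 printed, in that of Cebpg (2 matches), beside 38.2%. The Cebpg window, like those of Klf15 and Prdm16, held 0 bases of a Mof+/+ peak, since the peak of that gene lay downstream of it. The C/EBP letters TTGCNNAA, which include the palindrome TTGCGCAA, occurred in none of the 5 and in 10.2% of all windows, and among the 7 genes matched in that of Zfp423 alone, with 2 matches. The EBF letters, TCCC and GGGA set 2 bases apart, were in none of the 7 and in 0.959% of all windows. These are letter matches in a short window, not sites shown to be bound.

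CpG density tracked the presence of a Mof+/+ peak over all genes but did not divide the 7 factors matched in the promoter table. It is not given here for Ebf2 and Zfp521, which carried a Mof+/+ peak, or for Cebpd, which did not. Counted over 500 bp on either side of the 5′ end, genes with 0 to 12 CpG sites carried a Mof+/+ peak in 10.9% of cases, those with 13 to 41 in 31.9%, those with 42 to 69 in 61.6% and those with 70 to 172 in 75.3%. All 7 fell in the last class. Cebpa (105 sites), Cebpb (145), Cebpg (111) and Klf4 (115) carried a peak, whereas Klf15 (116), Prdm16 (115) and Zfp423 (91) did not. The chromatin was digested with CviKI-1, an enzyme that cuts within AGCC or equally within AGCT, as well as within GGCC or equally within GGCT, and then sonicated. Over the same span there were 25 such sites at Klf15, 28 at Klf4, 33 at Cebpb, 34 at Cebpg, 35 at both Cebpa and Prdm16 and 38 at Zfp423, beside a median of 24 over all genes. The ranges of the genes with a peak (28 to 35) and without (25 to 38) overlapped.

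**Figure D2:**
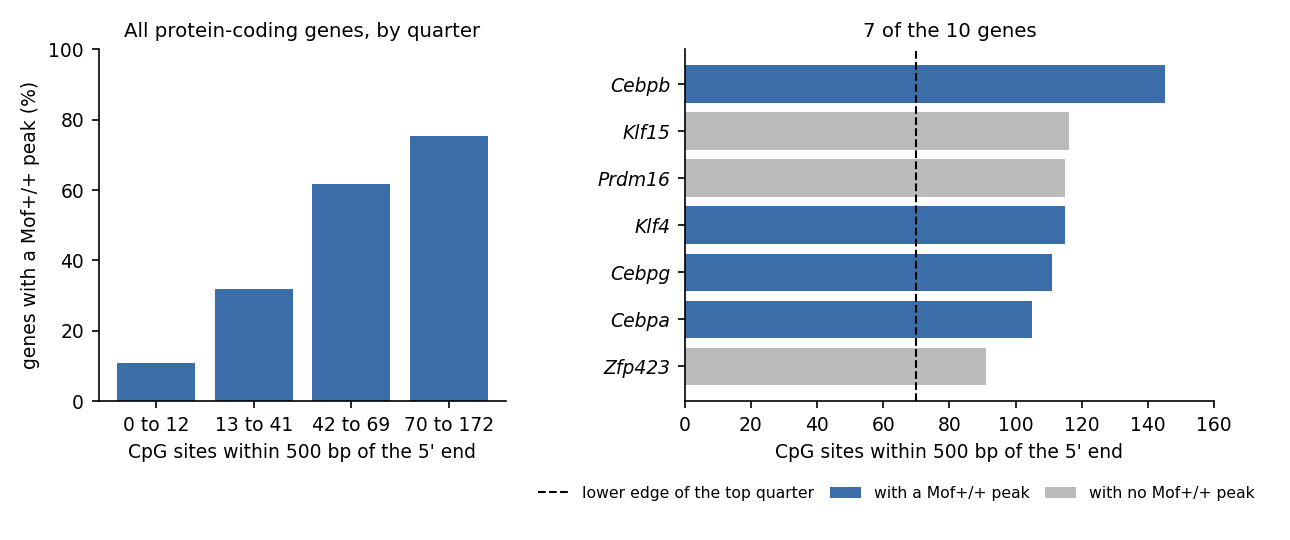
Left, percent of protein-coding genes with a Mof+/+ peak in 4 classes by CpG count within 500 bp of the 5′ end, from 10.9% in the lowest to 75.3% in the highest. Right, CpG sites in that span for 7 of the factor genes, in blue with and in grey without a Mof+/+ peak, with a dashed line at 70 sites, the lower edge of the top class; all 7 lie to its right, and the grey bars lie among the blue ones.

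Among the C/EBP genes, Cebpb carried the strongest peak, which was also the most enriched Mof+/+ peak of the 10 factors. Cebpb (chr2:167688915-167690418, plus strand) is a gene of 1504 bp, and its Mof+/+ peak at chr2:167688731-167690132 spanned 1402 bp, from −184 to 1217 bp relative to the 5′ end. Its fold enrichment, the signal over the local background at the summit, was 5.73 with a −log10 p of 14.60 and a −log10 q of 10.47. That corresponded to 27 fragments over a background of 3.89. The value lay at percentile 92.6 of the 11024 Mof+/+ peaks within 1 kb of a start site, whose median was 3.76. The summit was 790 bp into the gene, in coding sequence, and closer to a start site of the overlapping protein-coding gene Tmem189 (117 bp) than to that of Cebpb. ChIP has no strand, so the peak cannot be given to either gene alone. The 101 bases around it (chr2:167689655-167689755, plus strand, all within the Cebpb coding sequence) are shown because they are the most enriched bases in Mof+/+ WAT at any of the 7 factors matched in the promoter table, with the CviKI-1 sites in capitals.
Cebpb summit: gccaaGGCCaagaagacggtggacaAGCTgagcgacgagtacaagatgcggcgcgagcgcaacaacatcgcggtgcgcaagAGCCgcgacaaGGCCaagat

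They held 4 CviKI-1 sites and 12 CpG sites. The Mof+/- list had no peak at Cebpb or within 50 kb of it, and its nearest peak, at Pfdn4, was 2807005 bp from the start site. The Cebpb surroundings were also the most populated, with 9 Mof+/+ peaks in the gene or within 50 kb. Of the other 8, 4 had summits at −32176 to −27578 bp near Gm20431 (fold enrichment 3.41 to 4.87), 1 lay 8630 bp upstream with Cebpb itself as the nearest start site (3.02), and 3 lay 3715 to 11362 bp downstream of the start near A530013C23Rik (3.32 to 3.54). None of these exceeded the peak over the gene.

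Cebpa, the factor of the differentiated fat cell, carried 2 weak Mof+/+ peaks with the same values. The gene (chr7:35119293-35121928, plus strand) is 2636 bp long, and the peaks were chr7:35119113-35119513 (401 bp), with its summit 170 bp into the gene in coding sequence, and chr7:35121243-35121550 (308 bp), with its summit at 2177 bp in the untranslated region. Each had a fold enrichment of 3.10, a −log10 p of 4.70, a −log10 q of 2.07 and 13 fragments over a background of 3.52, which is the lowest background in the list. The values are equal because fragments come in whole numbers over a shared minimum background, and the Ebf2 peak in Mof+/+ WAT had the same ones. Neither Cebpa peak passed a q-value of at most 0.001. They lay at percentile 21.3 of promoter peaks. An antisense gene, Gm45091, had the start site nearest to both summits (142 and 1865 bp).

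Cebpg lies 62719 bp from Cebpa on the same chromosome, at chr7:35046422-35056573 on the minus strand. Its single Mof+/+ peak (chr7:35055709-35056462, 754 bp) began 111 bases downstream of the 5′ end, with the summit 487 bp into the gene in an intron. That summit lay at −103 bp from the nearest annotated start site of Cebpg, an internal one. The fold enrichment was 3.76 with a −log10 p of 6.69 and 16 fragments, at percentile 48.4 of promoter peaks and so close to their median. An antisense start site, that of Gm45095, lay 59 bp from the summit. No further peak of either list lay between Cebpg and Cebpa.

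Cebpd, which is induced early alongside Cebpb, had no peak in either list over its 3746 bp (chr16:15887286-15891031, plus strand) or the flanking 3 kb. The nearest Mof+/+ peak, with a fold enrichment of 3.32, was 23665 bp away at the start of Mzt2.

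Of the KLF factors, Klf4 carried 2 Mof+/+ peaks on either side of its start and Klf15 none. Klf4 occupies chr4:55527143-55532466 on the minus strand. The upstream peak, chr4:55532831-55533627 (797 bp), had its summit 476 bp before the gene and a fold enrichment of 3.98 with a −log10 p of 7.41 and 17 fragments, at percentile 56.3 of promoter peaks. The peak over the gene, chr4:55529977-55532465, was the widest at any of the factors (2489 bp, wider than 96.0% of Mof+/+ peaks) and the least enriched (2.44, −log10 p 3.64), with 15 fragments over a background of 5.57 and its summit 1113 bp into the gene in an intron. Between them lay 365 bases, which begin at the first base of the gene and run upstream. Klf15 (chr6:90462576-90475238, plus strand, 12663 bp) had no peak within 50 kb, and the closest Mof+/+ peak was at Slc41a3, 137293 bp away. The Mof+/- list had no peak at either gene.

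Ebf2, which marks brown and beige precursors, was the gene at which the lists placed peaks at different positions. In Mof+/- WAT the peak (chr14:67232976-67233324, 349 bp) covered the 5′ end of the gene (chr14:67233292-67430918, plus strand), with its summit 17 bp upstream, a fold enrichment of 3.99, a −log10 p of 6.09 and 12 fragments over 2.26. In Mof+/+ WAT the peak (chr14:67235015-67236272, 1258 bp) had its summit 2108 bp into the gene, in an exon of a noncoding transcript, with a fold enrichment of 3.10. That summit lay 756 bp from the nearest annotated start site of Ebf2, an internal one. The summits were 2125 bp apart, and 1690 bases separated the peaks. No Mof+/+ peak was listed over the 5′ end. The weakest peak of that list had a −log10 p of 3.25, and the Mof+/- peak at Ebf2 had 6.09. Scaled to the higher Mof+/+ background, the Mof+/- fragments came to 19 and the −log10 p to 8.90. The site is known from its Mof+/- peak alone, the scaling holds no counting error, and the Mof+/+ signal there was not read. A difference between the genotypes at this site was therefore not tested. The Ebf2 peak lay at percentile 31.8 of the 399 Mof+/- promoter peaks, below their median of 4.29. With −log10 q of 2.06 in Mof+/- and 2.07 in Mof+/+ WAT, neither Ebf2 peak passed a q-value of at most 0.001.

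Zfp521 was the only factor gene with overlapping peaks in the 2 lists. It occupies chr18:13687013-13972787 on the minus strand, and its Mof+/+ peak, chr18:13970740-13972780, spanned 2041 bp from 7 bases inside the gene, with a fold enrichment of 5.53, a −log10 p of 12.99 and 24 fragments over 3.52. The Mof+/- peak, chr18:13971291-13972401, was 1111 bp wide and wholly inside it, with a fold enrichment of 6.13, a −log10 p of 12.23 and 19 fragments over 2.26. The summits, both in an intron, were 7 bp apart and lay 1435 and 1442 bp into the gene, close to an internal start site. The 2 values were at percentiles 90.5 and 92.0 of the promoter peaks of their own lists. Fold enrichment is relative to the background of each list, so the higher value in Mof+/- WAT does not measure more binding.

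The remaining long genes had no peak in either list. Zfp423, a relative of Zfp521 with the opposite role in adipogenesis, runs over 297786 bp at chr8:87661810-87959595 on the minus strand, and its nearest peaks were at Cnep1r1 in Mof+/+ (159203 bp from a start site) and at Cbln1 in Mof+/- WAT (333055 bp). Prdm16 runs over 320749 bp at chr4:154316125-154636873 on the minus strand, and its nearest peaks in both lists were at Trp73 (192055 and 193033 bp). Zfp423 and Prdm16 each have 7 annotated start sites, the same number as Zfp521. A gene without a listed peak had no enrichment past the threshold at this depth, which is not evidence that MOF is absent there.

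**Figure D3:**
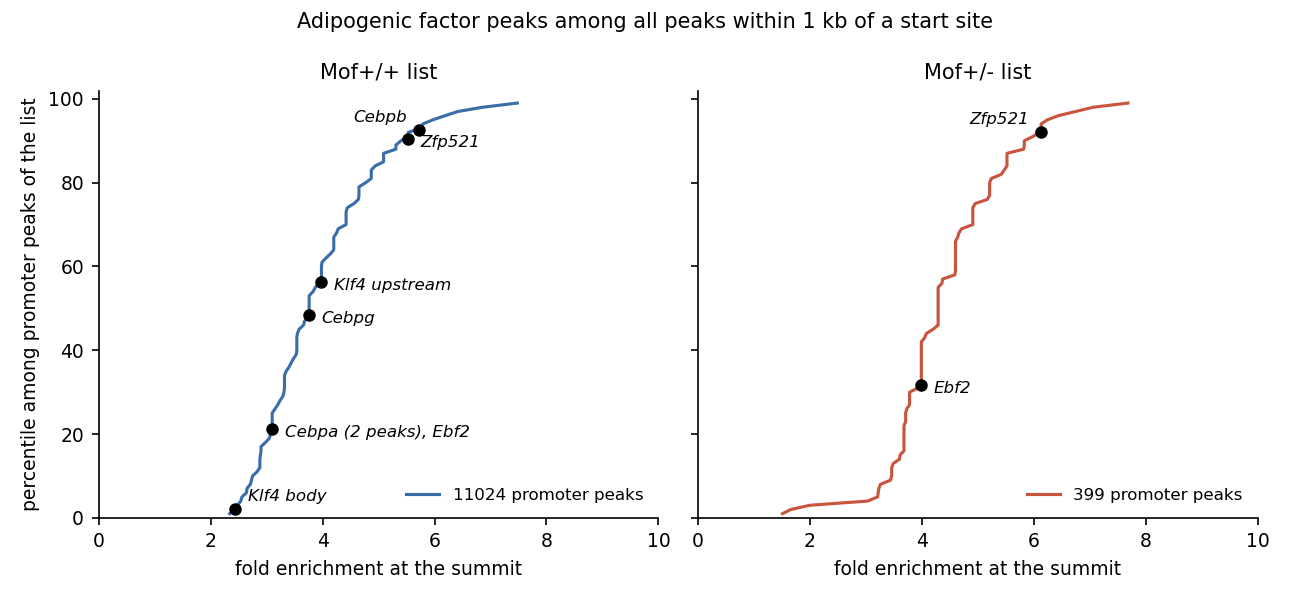
Fold enrichment at the summit (x axis) against the percentile among the peaks of the same list within 1 kb of a start site (y axis), for 11024 Mof+/+ peaks (left) and 399 Mof+/- peaks (right) as lines and for the peaks at the factor genes as black points. Cebpb and Zfp521 lie near the top in Mof+/+ WAT, Zfp521 also in Mof+/- WAT, and the 3 Mof+/+ peaks of Cebpa and Ebf2 share a point at 3.10; the second Cebpa peak lies over 1 kb from a start site and is placed by its value.

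Across the 8 Mof+/+ peaks at the factor genes, fold enrichment ran from 2.44 to 5.73, width from 308 to 2489 bp and fragments at the summit from 13 to 27. Of these peaks, 7 were within 1 kb of a start site, 3 were above the median fold enrichment of promoter peaks, and 6 were above their median width of 735 bp. The widest peak, that of Klf4 (2489 bp), had the lowest fold enrichment, whereas the Zfp521 (2041 bp) and Cebpb (1402 bp) peaks, next in width, had the highest, and the narrow Cebpa peaks were weak (3.10).

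The lists differed in the background and in the weakest p-value behind a peak, and the Mof+/+ peaks at the factors were therefore set on the Mof+/- scale. The lowest background was 3.52 fragments in Mof+/+ WAT and 2.26 in Mof+/- WAT, which are 1.56 times apart, and the weakest listed −log10 p was 3.25 and 4.72. As deposited, 4 of the 8 Mof+/+ peaks lay past 4.72, namely those of Cebpb, Cebpg, Zfp521 and the upstream Klf4 peak. Fragments and background were then divided by 1.56, and the fragments were rounded to whole numbers. On that scale 3 were still past 4.72: Cebpb (9.68), Zfp521 (8.57) and the upstream Klf4 peak (5.33). Cebpg came to 4.60, Cebpa and Ebf2 to 3.24 and the Klf4 peak over the gene to 2.92. Cebpg had 10 scaled fragments and the upstream Klf4 peak 11 over the same background, so the place of Cebpg beside 4.72 depends on the rounding. Of the 3 peaks that stayed past the weakest Mof+/- value, Zfp521 had a counterpart in the Mof+/- list, whereas Cebpb and Klf4 had none. The scaling uses the background alone and holds no counting or biological error, and the part of sequencing depth and of enrichment in the difference between the lists was not tested.

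**Figure D4:**
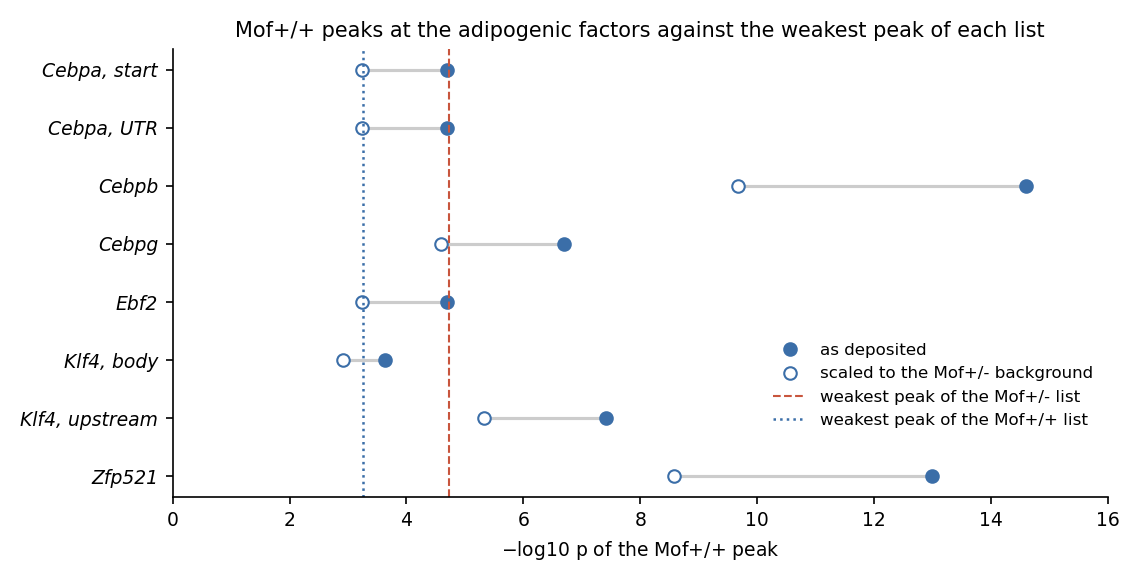
The −log10 p of the 8 Mof+/+ peaks at the factor genes as deposited (filled) and after fragments and background were divided by 1.56 (open). Lines mark the weakest peak of the Mof+/- list (dashed, 4.72) and of the Mof+/+ list (dotted, 3.25). Scaled fragments were rounded to whole numbers. Cebpb, Zfp521 and the upstream Klf4 peak stay to the right of the dashed line after scaling. Cebpg falls just short of it at 4.60, a place that depends on the rounding.

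Other genes of the same families and of adipogenesis carried Mof+/+ peaks at a higher share than the 10 factors, with no test of the difference. Of 54 such genes 41 did (75.9%), and 7 (13%) carried a Mof+/- peak. For the genes listed as C/EBP outside the set the counts were 2 and 0 of 3. The Mof+/+ peaks were at Ddit3, the stress-induced C/EBP homologue (fold enrichment 7.08), and at Cebpz (3.98). Cebpz was counted by its symbol and is not a leucine-zipper factor. For the other EBF genes the counts were 2 and 1 of 3. Ebf1, a gene of 390775 bp, carried 11 Mof+/+ peaks up to 3.98 and none in Mof+/- WAT. Ebf3, like Ebf2, carried peaks in both lists (3.76 and 4.70). Of the 15 other KLF genes, 11 carried a Mof+/+ peak, led by Klf2 (10.62) and Klf3 (7.96), and 0 a Mof+/- peak, as for Klf4 and Klf15. Of the 14 other PRDM genes, 11 carried a Mof+/+ and 5 a Mof+/- peak (Prdm1, Mecom, Prdm6, Prdm8 and Prdm14), whereas Prdm16 carried neither. Of 4 partners of PRDM16 in brown fat, 3 carried a Mof+/+ peak (Ctbp1, Med1 and Ehmt1) and 0 a Mof+/- peak. Among 15 other regulators of adipogenesis, 12 carried a Mof+/+ peak, with Creb1 (6.81), whose product activates Cebpb, as the strongest, and 1 carried a Mof+/- peak, Nr2f2 (3.68).

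**Figure D5:**
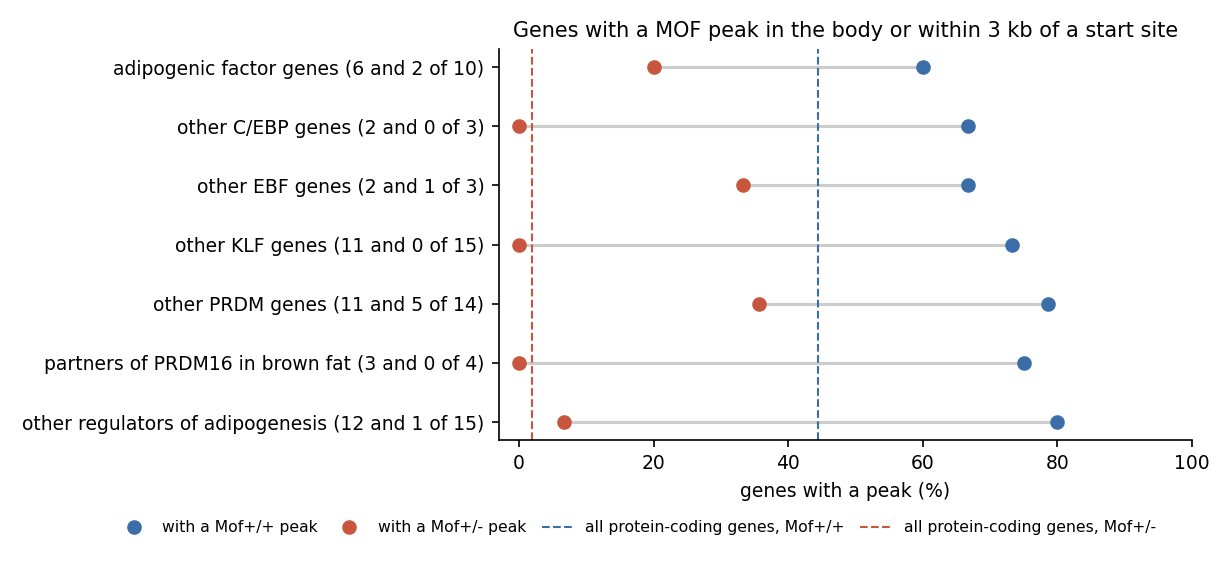
Percent of genes with a Mof+/+ peak (blue) or a Mof+/- peak (red) among the 10 adipogenic factor genes and in 6 groups of related genes, with the 2 counts and the group size in brackets; dashed lines mark all protein-coding genes, at 44.5% and 1.89%. In each group the blue point lies to the right of the blue line, and in the C/EBP, KLF and partner groups the red point lies at 0.

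The tissue label was checked against peaks at cell type markers. Of 10 adipocyte markers 7 carried a Mof+/+ peak, and of 5 brown or beige markers none, Ucp1 included, beside 44.5% of all protein-coding genes. Markers of other cells carried them as well: 5 of 5 for B cells, 4 of 5 for T cells, 3 of 6 for adipocyte progenitors, and 1 of 5 each for mesothelium, macrophages and endothelium. In the Mof+/- list, beside 1.89% of all protein-coding genes, the counts were 0 of 10 for adipocytes, 1 each for progenitors (Pdgfra), mesothelium (Wt1) and B cells (Pax5), and 0 for the others. A peak does not say which cells carry it, and the part of cell composition in the peaks at the factor genes was not tested.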

How the data were processed

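ChIP-seq reads from visceral WAT were mapped by the authors to GRCm38/mm10, and peaks were called with MACS2 (version 2.1.1.20160309.3) against input at a q-value threshold of 0.1, per the labels and the methods. The deposited peak lists hold, for each peak, the fold enrichment at the summit, the −log10 p-value and −log10 q-value, and the offset of the summit. A display score was not used, and the genotype of each list was taken from its name. The lists do not hold read totals, so the depth of each library is unknown. The labels and the reporting summary differ on the MOF antibody, and the reporting summary lists both an Abcam and a Millipore one for ChIP-seq.

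Genes and start sites came from GENCODE mouse M21 on the assembled chromosomes, which held 19753 Mof+/+ and 716 Mof+/- peaks. The fragments and background at each summit were solved from the fold enrichment, (fragments + 1)/(background + 1), and the Poisson p-value, to within 0.001 in −log10 p, which succeeded for 99.98% and 99.44% of the peaks. Scripts ran in Python 3.11.15 with pandas 2.3.3 and numpy 2.4.6 and were tested on simulated data. The named genes were all 10 factors and, of the related genes, those with a Mof+/- peak or among the 5 highest Mof+/+ fold enrichments of their group. The factors, lists and alternatives were chosen with earlier results of these data known. No significance test was made. The alternatives changed the rule that gives a peak to a gene, the peak threshold, the merging of peaks and the overlap required.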

Additional observations from a re-analysis of the deposited data

How the results depend on the processing

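Of 58 alternatives, 53 left the value within 1.5 times that reported, and the 6 genes with a Mof+/+ peak and the 2 with a Mof+/- peak were the same ones with a window of 1 kb or 3 kb alone, the gene body alone, the summit in place of the whole peak, or a q-value of at most 0.01. The threshold moved the other 5. With peaks kept only up to a q-value of 0.001, the Mof+/+ peaks at the factors came to 4 in place of 8, the genes with a Mof+/- peak to 1 (Zfp521, with Ebf2 lost) and the Mof+/- peaks to 1, and the share of protein-coding genes with a Mof+/- peak to 1.03%. With Mof+/+ peaks held to the weakest Mof+/- p-value there were also 4. Under both settings Cebpb, Cebpg, Klf4 and Zfp521 were the genes with a Mof+/+ peak. No paired analysis was possible because each list stands for a whole genotype and its columns carry no replicate, and leaving out a replicate was not possible for the same reason.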
